A study of Caenorhabditis briggsae with 10 samples.

Results

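In the hybrid of the Caenorhabditis briggsae strains HK104 and AF16, 218 of the 23175 genes in the deposited tables had clearly unequal read counts from their 2 alleles although the parental strains held nearly equal RNA levels of the gene. They were chosen by 2 log2 ratios, each taken after cold and in the control. The allele ratio was log2 of the HK104 over the AF16 reads of a hybrid library, with 0.5 added to each count. The parental ratio was log2 of the mean HK104 over the mean AF16 level, in counts per 1000000 counts of the library (CPM) with 0.5 added. A gene entered with at least 40 allele reads and an AF16 share of 5% to 95% in both hybrid libraries, an allele ratio of at least 1 in size with the same sign in both, and a parental ratio of at most 0.32 in size in both conditions. These ratios are therefore given below as a description, with no test. All 218 genes are identified by WormBase gene ID only, since 0 of the 23175 IDs were found in the RefSeq gene table of assembly CB4, so no symbol, function or position is given.

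The RNA came from whole worms, synchronised as mid to late L4 larvae and grown for 24 hours at 20 °C. Cold worms were then held for 60 hours at 4 °C, while control worms were collected without delay, so every cold difference also holds the elapsed time. Each wild-type strain had 2 cold and 2 control libraries, and the AF16/HK104 hybrid had 1 cold and 1 control library. The labels give neither the direction of the cross nor the generation of the hybrid, and nothing says whether replicates came from separate cultures, so p-values measure only the spread between these libraries.

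In a hybrid both alleles of a gene share the same cells and the same regulatory proteins. A difference in the DNA next to the gene (in cis) therefore remains visible as unequal reads of the alleles, whereas a difference in a diffusible regulator (in trans) acts on both. Unequal alleles with equal parents are the pattern that is conventionally described as cis and trans differences of opposite sign. An allele count also depends on sequence differences between the strains, because only reads that carry one can be assigned to a strain, and on how reads of each strain align. The C. briggsae reference genome was built from AF16. The genome to which these reads were aligned and the rule of assignment are not given in the sources used here, and the worms of a library are a mixture of tissues in which fewer cells of a type and less RNA per cell cannot be told apart.

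Parental libraries held 15360979 to 18362210 counts. The hybrid libraries held 6008659 assigned reads after cold, of which 46.9% were HK104 and 53.1% AF16, and 5334965 in the control, of which 46.6% were HK104 and 53.4% AF16. The description field of each strain's first cold library ends in a suffix of unstated meaning, and the counts of members, of cold calls and of genes below the mid-parent are also given without these libraries. The 218 genes held 4.33% of the assigned hybrid reads after cold and 4.41% in the control. In the parents they took 6.11% ± 0.545 of HK104 cold counts, 6.20% ± 0.141 of AF16 cold counts, 5.97% ± 0.0437 of HK104 control counts and 5.81% ± 0.235 of AF16 control counts (SD, n = 2 each).

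Of 6506 genes with enough allele reads and an AF16 share within the limits, 468 had unequal alleles in both libraries. The 218 genes were 46.6% of these 468, and 3.35% of the 6506. Parents were as equal as the rule asks in 3488 of the other 6038 genes, or 57.8%, and these 3488 genes (called balanced genes here) serve for comparison. Among the 250 genes with unequal alleles and unequal parents, the parental ratio most often had the sign of the allele ratio: in 189 of the 222 past the parental limit after cold, and in 189 of the 210 past it in the control.

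The AF16 allele was the higher one in 160 of the 218 genes (73.4%) and the HK104 allele in 58 (26.6%). The split was less uneven among the 250 genes with unequal parents, with 147 AF16-higher (58.8%) and 103 HK104-higher genes (41.2%). Among the balanced genes, where the difference is small, the AF16 allele had more reads in the control in 1963 (56.3%) and the HK104 allele in 1525 (43.7%). Over all 218 genes the alleles summed to 77057 HK104 and 182880 AF16 reads after cold, and to 65780 HK104 and 169313 AF16 reads in the control. The whole libraries also held more AF16 than HK104 reads, and those totals include the reads of the 218 genes. In genes that met the read and AF16 share limits, the median HK104 share was 49.6% after cold and 49.4% in the control. The part of the AF16 excess of the whole libraries in the split was not tested. When each allele count was first divided by the total of its own column, 206 genes met the rule, 79 with HK104 higher and 127 with AF16 higher, and 185 of them were among the 218.

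**Figure D1:**
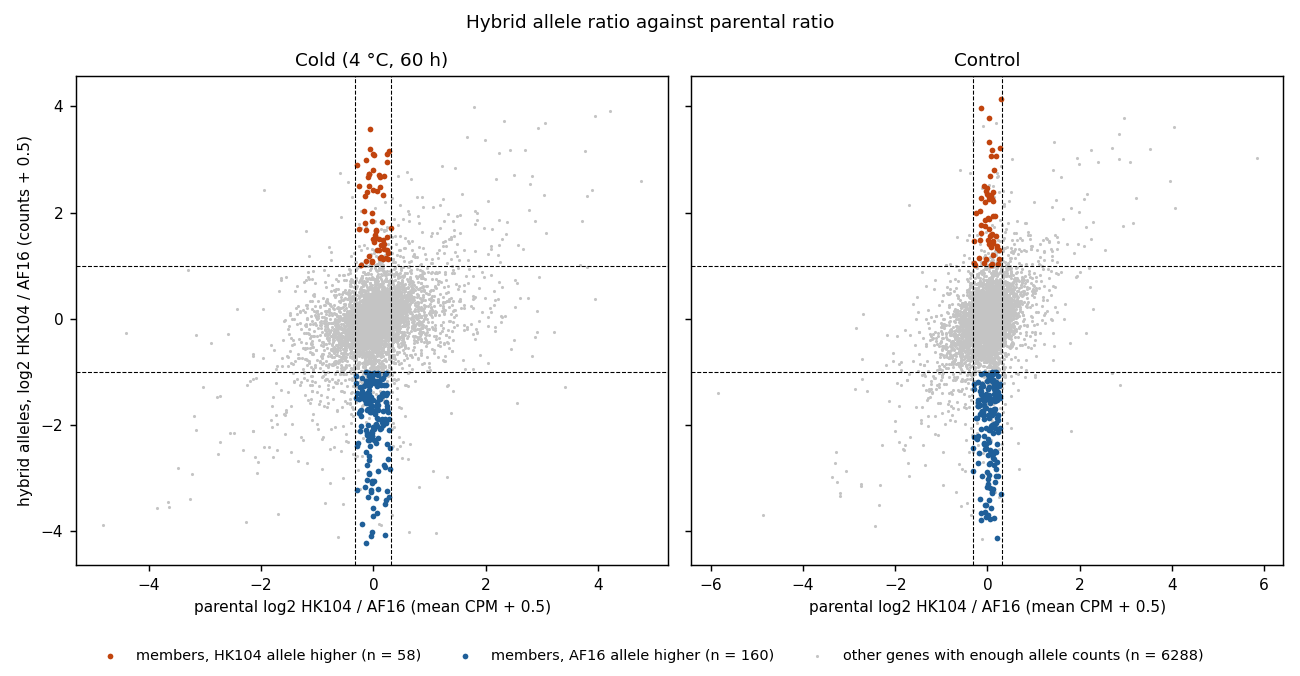
Hybrid allele ratio (vertical axis, log2 HK104 over AF16 reads) against the parental ratio (horizontal axis, log2 HK104 over AF16 mean CPM) for 6506 genes, after cold (left) and in the control (right); dashed lines are the limits of the rule. The 58 HK104-higher genes (red) and the 160 AF16-higher genes (blue) fill the upper and lower middle, and the other 6288 genes are grey.

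The median size of the allele ratio was 1.73 after cold (quartiles 1.37 and 2.41) and 1.81 in the control (quartiles 1.43 and 2.47). It was 2 or more in both libraries in 67 genes, and 3 or more in 20. The median size of the parental ratio was 0.11 after cold and 0.12 in the control, while its standard error in the edgeR fit had a median of 0.233 after cold and 0.234 in the control. Parental levels are thus equal only to within an error close to the limit itself. When the strains were compared one replicate number at a time, 128 of the 218 genes kept within the limit in all 4 comparisons, and 0 reached a ratio of 1 in any of them. The rule limits the means of these same libraries, so these counts describe their spread and do not test whether the parents are equal.

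Genes were ranked by the smaller of their allele ratios in the 2 hybrid libraries. The 2 HK104-higher genes strongest by that measure differed in how many reads they gave. WBGene00032455 had 367 and 363 CPM in HK104 cold, 365 and 393 in AF16 cold, 299 and 320 in HK104 control and 296 and 311 in AF16 control libraries. Its hybrid alleles had 633 HK104 and 69 AF16 reads after cold and 487 HK104 and 35 AF16 reads in the control. The strains overlapped in both conditions, while the HK104 share of hybrid reads was 90.2% after cold (95% Wilson interval 87.7% to 92.2%) and 93.3% in the control (90.8% to 95.1%). WBGene00033953 was more abundant in the parents, with 736 and 819 CPM in HK104 cold, 561 and 752 in AF16 cold, 769 and 726 in HK104 control and 622 and 621 in AF16 control libraries. Only 81 HK104 and 9 AF16 reads were assigned to it after cold, and 78 HK104 and 8 AF16 reads in the control. Its HK104 share of 90.0% after cold accordingly has a wider interval of 82.1% to 94.7%.

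The AF16-higher genes strongest by the same measure also differed in their reads. WBGene00025684 had 194 and 183 CPM in HK104 cold, 260 and 174 in AF16 cold, 134 and 145 in HK104 control and 153 and 152 in AF16 control libraries. Its alleles had 47 HK104 and 697 AF16 reads after cold and 34 HK104 and 476 AF16 reads in the control, an HK104 share of 6.32% (4.78% to 8.30%) after cold and 6.67% (4.81% to 9.17%) in the control. WBGene00030882 had 404 and 483 CPM in HK104 cold, 412 and 492 in AF16 cold, 402 and 398 in HK104 control and 368 and 360 in AF16 control libraries. Its alleles rest on 3 HK104 and 56 AF16 reads after cold and 4 HK104 and 60 AF16 reads in the control. The interval of its HK104 share after cold runs from 1.74% to 13.9%. All these intervals cover counting error only, because reads without molecular identifiers are not independent molecules.

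The genes with the most assigned reads were both AF16-higher. WBGene00023842 had 3900 and 4653 CPM in HK104 cold, 3884 and 5222 in AF16 cold, 4387 and 4118 in HK104 control and 4103 and 3685 in AF16 control libraries, so the strains overlapped after cold. Its alleles had 4963 HK104 and 20023 AF16 reads after cold and 5205 HK104 and 23240 AF16 reads in the control, an HK104 share of 19.9% and 18.3%. WBGene00040096 had 1284 and 1799 CPM in HK104 cold, 1466 and 1711 in AF16 cold, 1513 and 1551 in HK104 control and 1663 and 1426 in AF16 control libraries. Its alleles had 1491 HK104 and 14295 AF16 reads after cold and 1677 HK104 and 12359 AF16 reads in the control. The HK104 share of WBGene00040096 after cold was 9.45%, with an interval of 9.00% to 9.91%.

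**Figure D2:**
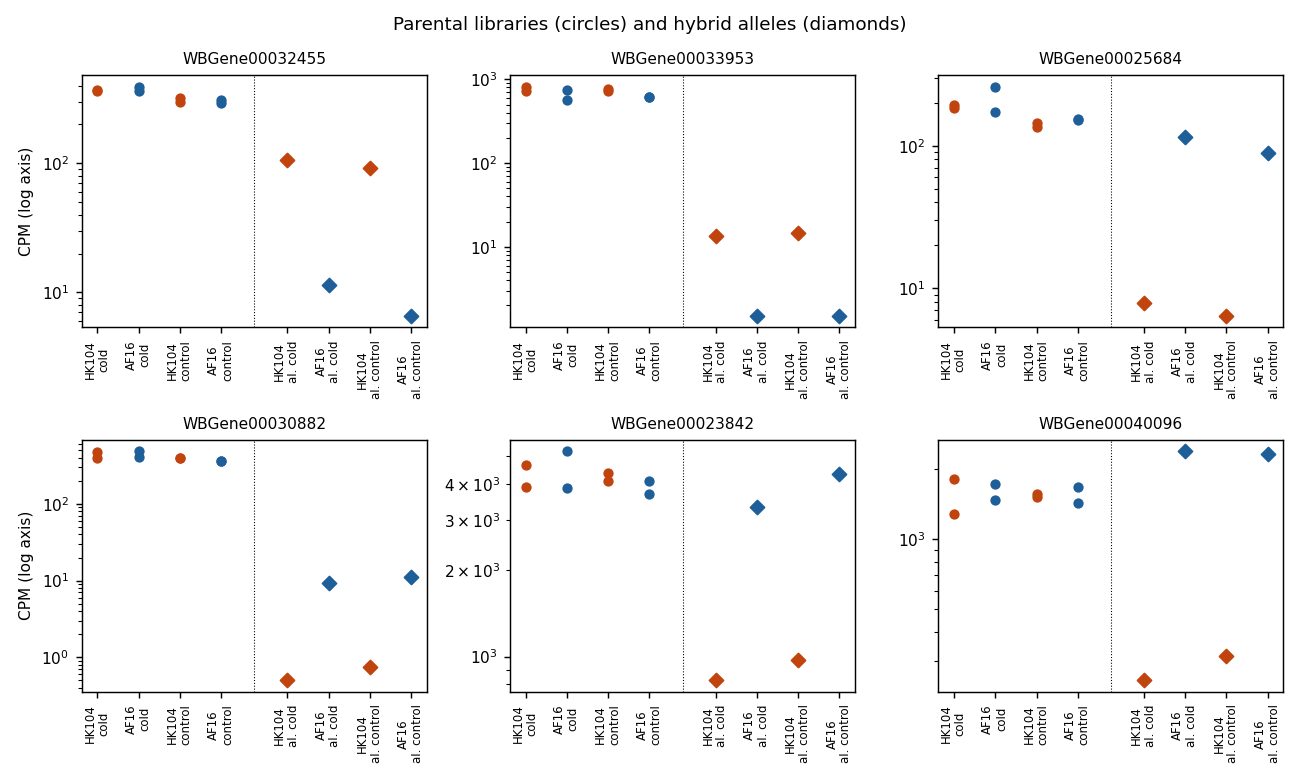
CPM on a log axis of the 4 genes with the strongest allele ratios (by the smaller of both libraries) and the 2 with the most reads; circles are the parental libraries (2 per strain and condition) and diamonds the hybrid alleles, red for HK104 and blue for AF16. Circles of both strains lie close together in every panel, and the alleles lie apart, with both alleles of WBGene00033953 and WBGene00030882 far below the circles.

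Genes close to the limits show how gradual the set is. Just inside the allele limit, WBGene00270357 had allele ratios of -1.025 after cold and -1.001 in the control, and WBGene00050905 had 1.009 and 1.126. Just outside it were WBGene00040497, with -0.9975 after cold and -1.072 in the control, and WBGene00029603, with -1.456 and -0.995. The parental ratio after cold was -0.3173 in WBGene00028536 and 0.3145 in WBGene00033332, the members nearest to that limit. It was -0.3204 in WBGene00035616 and 0.3213 in WBGene00034031, the nearest genes beyond it.

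Choosing genes in 1 condition and reading them in the other describes how the ratios repeat between libraries. The genes were taken from the 6506, whose reads and AF16 shares were limited in both libraries. The ratios are those of the rule, so this is no test. Of 377 genes that met the ratio limits in the control, 359 (95.2%) had an allele ratio of the same sign after cold (69.9% of the 6506 had one sign in both libraries) and 258 (68.4%) also passed the allele limit there, against 10.8% of all 6506 genes that passed it after cold. Their parental ratio was within its limit after cold in 303 (80.4%), against 65.1% of the 6506. Of 351 genes chosen after cold, 329 (93.7%) had the same sign in the control, 246 (70.1%) passed the allele limit (10.5% of the 6506 did) and 306 (87.2%) the parental limit (71.9% did). The same assignment of reads underlies both hybrid libraries, so this repeat does not separate a property of the worms from a property of the assignment.

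The level of the alleles relative to the parents was not used by the rule. After cold, the 218 genes had summed allele CPM at a median of 94.8% of the mid-parent level (the mean of both strains' CPM), against 132% in balanced genes, and in the control at 95.5% against 128%. The sum was below the mid-parent in both conditions in 106 of the 218 genes (48.6%) and in 1108 of the 3488 balanced genes (31.8%). Read against the median of the balanced genes, 133 of the 218 (61.0%) were lower in both conditions, and that count stayed between 129 and 134 under other scalings, with each parental library left out and without the first cold library of both strains. With 1 hybrid library per condition these levels have no replicate error and were not tested. The levels count assigned reads only, so that a lower level can come from less RNA or from fewer reads that could be assigned, which cannot be told apart.

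Low levels made up a larger share of the HK104-higher than of the AF16-higher genes. The HK104-higher genes' summed alleles stood at a median of 30.4% of the mid-parent after cold and 31.0% in the control, and 40 of the 58 (69.0%) were below it in both conditions. In the AF16-higher genes the medians were 115% and 110%, and 66 of the 160 (41.2%) were below it in both.

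Each allele can also be set against its own parent, with 50% as a reference (0.25 CPM was added to the allele and 0.5 to the parent). Hybrid CPM are relative to assigned reads and parental CPM to all counts. An allele that keeps its parent's output therefore need not stand at 50%. With TMM scaling the median log2 level of the summed alleles in balanced genes was -0.08 after cold, against 0.40 with column totals. In the HK104-higher genes, the HK104 allele had a median of 25.3% of the HK104 parent after cold and the AF16 allele 5.76% of the AF16 parent. In the control the medians were 25.1% and 6.99%, so the medians of both alleles were under 50%. In the AF16-higher genes, the HK104 allele stood at 24.6% after cold and 22.3% in the control, and the AF16 allele at 84.8% after cold and 87.9% in the control. Balanced genes had 64.3% for the HK104 allele and 66.8% for the AF16 allele after cold, and 61.9% and 65.7% in the control. The distance between the alleles is fixed by the rule, but where the pair lies relative to 50% is not. In AF16-higher genes the pair thus straddled the level of the balanced genes, and in HK104-higher genes both alleles lay below it.

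**Figure D3:**
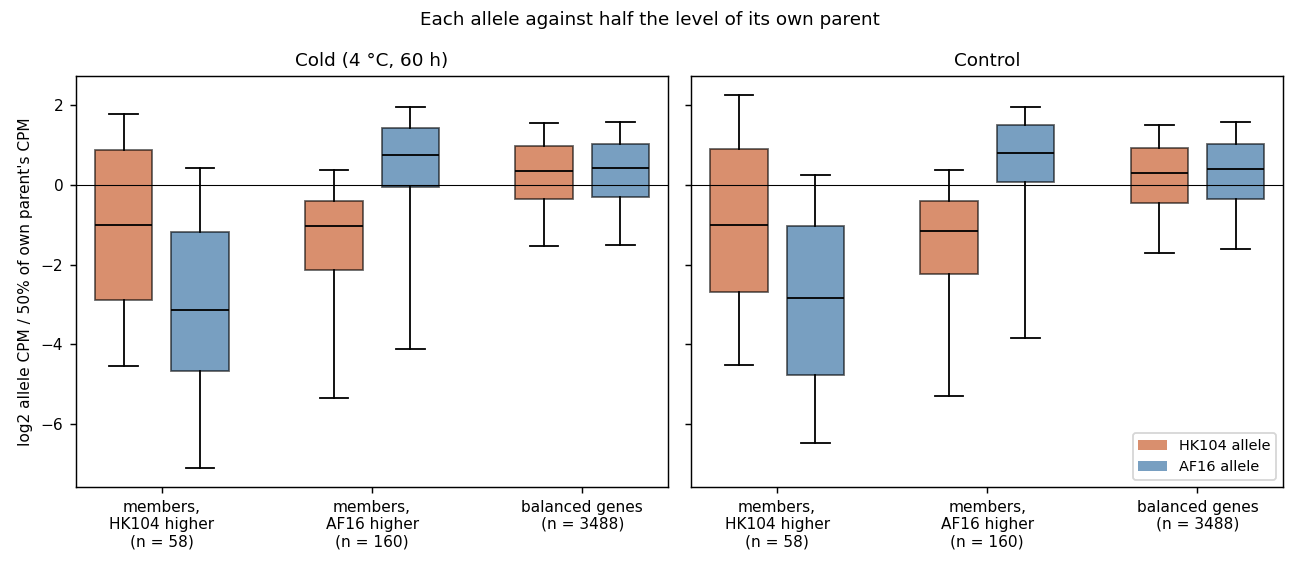
Each hybrid allele's CPM relative to 50% of its own parent's CPM (log2 scale, where 0 is an allele at 50% of its parent), after cold (left) and in the control (right), for HK104-higher genes, AF16-higher genes and balanced genes. Boxes are quartiles with the median, whiskers run from the 5th to the 95th percentile, red is the HK104 allele and blue the AF16 allele; both boxes of the 58 HK104-higher genes reach lower than those of the 3488 balanced genes.

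Alleles were most often unequal where that level was lowest. Among genes whose summed alleles averaged less than 12.5% of the mid-parent (log2 below -3), 48 of 93 (51.6%) had unequal alleles. The share was 8.55% from 12.5% to below 50% of the mid-parent, 5.84% from there to below 200%, and 7.32% at 200% or more. In the lowest class 33 of the 68 genes with equal parents (48.5%) were members. From 12.5% to below 50%, 31 of 372 genes with equal parents (8.33%) were members. From 50% to below 200% the figure was 121 of 2361 (5.12%), and at 200% or more 33 of 905 (3.65%). The lowest class held 21 HK104-higher and 12 AF16-higher genes, whereas the class around the mid-parent held 20 HK104-higher and 101 AF16-higher genes.

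A class with at least 40 assigned reads and a low ratio to the parents can hold only genes with high parental levels, and all 93 of its genes had medians of 282 CPM after cold and 310 in the control and of 95 and 86 assigned reads. For the 33 members, the median mid-parent level was 324 CPM after cold and 318 in the control, against 91.7 and 75.4 CPM in balanced genes. Their median of assigned reads was 111 after cold and 84 in the control, against 614 and 446 reads in balanced genes. WBGene00025341, an AF16-higher gene with the lowest summed level of all 218 in the mean of both conditions, had 1635 and 3062 CPM in HK104 cold, 2267 and 2974 in AF16 cold, 2577 and 2583 in HK104 control and 3069 and 2378 in AF16 control libraries. Against 25757 to 54615 counts per parental library, its alleles had 58 HK104 and 168 AF16 reads after cold and 95 HK104 and 271 AF16 reads in the control. The sum was 1.53% of the mid-parent after cold and 2.61% in the control. WBGene00028357, an HK104-higher gene, stood at 1.60% and 2.49%, with 150 HK104 and 30 AF16 reads after cold and 173 HK104 and 57 AF16 reads in the control. The part that the small number of assigned reads has in the allele ratios of these genes was not tested. Without the genes below 50% of the mid-parent, 154 members remained, 26 with HK104 higher and 128 with AF16 higher.

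At the other end, WBGene00027781 had summed alleles at 456% of the mid-parent after cold and 384% in the control. Its parents had 15.4 and 18.8 CPM in HK104 cold, 14.7 and 16.5 in AF16 cold, 14.6 and 15.9 in HK104 control and 14.6 and 14.3 in AF16 control libraries, all within a narrow range. The alleles had 317 HK104 and 142 AF16 reads after cold and 224 HK104 and 88 AF16 reads in the control. WBGene00035988, also HK104-higher, stood at 302% after cold and 295% in the control, with 152 HK104 and 20 AF16 reads after cold and 120 HK104 and 30 AF16 reads in the control.

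**Figure D4:**
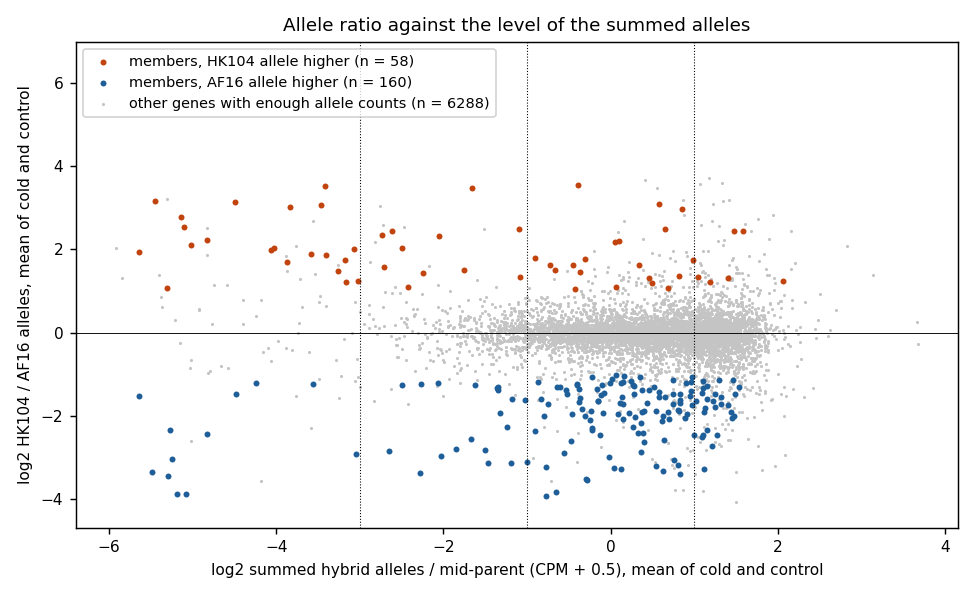
Mean allele ratio of both hybrid libraries (vertical axis, log2 HK104 over AF16) against the mean level of the summed alleles relative to the mid-parent (horizontal axis, log2) for 6506 genes; dotted lines mark 12.5%, 50% and 200% of the mid-parent. HK104-higher genes (red, 58) are spread over the whole width, AF16-higher genes (blue, 160) gather around the mid-parent, and below 12.5% of it 33 of the 93 genes are members.

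The number of assigned reads moved with the direction as well. With 40 to under 100 reads in the smaller hybrid library, 28 HK104-higher and 12 AF16-higher genes were members, together 8.77% of the 456 genes with equal parents. With 100 to under 300 reads the members were 18 HK104-higher and 27 AF16-higher genes (4.90% of 918), and with 300 to under 1000 reads 7 HK104-higher and 69 AF16-higher genes (4.69% of 1619). At 1000 reads or more, 5 HK104-higher and 52 AF16-higher genes were members (7.99% of 713). Deeply covered members were therefore nearly all AF16-higher, and the sparsely covered ones mostly HK104-higher. The part of read depth in the direction was not tested.

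The cold response within a strain was not used by the rule, and it was tested in all 13503 expressed genes with edgeR's quasi-likelihood test at a Benjamini-Hochberg adjusted p below 0.05. All 218 genes passed the filter on low counts. Of the 218 genes, 202 were called in neither strain. In HK104 worms 5 rose after cold (2.29%), where 4.54% of all tested genes and 3.3% of balanced genes did, and 6 fell (2.75%), where 16.6% of all tested and 3.99% of balanced genes did. In AF16 worms 4 rose (1.83%), where 2.78% of all tested and 2.49% of balanced genes did, and 8 fell (3.67%), where 20.1% of all tested and 5.07% of balanced genes did. The shares of members thus lay near those of balanced genes. The low share of falls relative to all genes is shared by the balanced genes.

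All 6 genes that fell in HK104 also fell in AF16. The rule limits the parental ratio to 0.32 in size in both conditions, so a large fall in either strain had to appear in the other. This overlap was therefore nearly fixed in advance, and nothing is read from it. WBGene00035764 had 14.1 and 10.4 CPM in HK104 cold against 76.9 and 71.7 in HK104 control, and 20.1 and 8.77 CPM in AF16 cold against 67.0 and 78.0 in AF16 control. Cold and control libraries did not overlap in either strain, and the log2 change was -2.63 ± 0.30 in HK104 (SE, edgeR adjusted p = 0.00023) and -2.47 ± 0.30 in AF16 (adjusted p = 0.000345). In the hybrid its HK104 allele had 30 reads after cold against 156 in the control, and its AF16 allele 108 against 666. WBGene00041833 had 25.1 and 13.5 CPM in HK104 cold against 99.7 and 102 in HK104 control, and 25.3 and 10.4 in AF16 cold against 142 and 97.5 in AF16 control. Its log2 change was -2.42 ± 0.36 in HK104 (edgeR adjusted p = 0.00107) and -2.88 ± 0.37 in AF16 (adjusted p = 0.000441), and its alleles had 26 HK104 and 111 AF16 reads after cold against 116 HK104 and 425 AF16 reads in the control. WBGene00026718 had 4.57 and 1.51 CPM in HK104 cold against 14.9 and 15.0 in HK104 control, and 2.93 and 2.56 in AF16 cold against 21.9 and 14.6 in AF16 control. This HK104-higher gene fell by 2.81 ± 0.42 in AF16 on the log2 scale (edgeR adjusted p = 0.00104) and by 2.33 ± 0.41 in HK104 (adjusted p = 0.00286). Both alleles and their sum were lower in the cold hybrid library in all 6 genes.

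The named genes that rose changed by less than those that fell. WBGene00088622 had 123 and 69.8 CPM in HK104 cold against 39.0 and 37.4 in HK104 control, and 101 and 55.1 in AF16 cold against 40.3 and 46.8 in AF16 control. It rose by 1.30 ± 0.28 on the log2 scale in HK104 (edgeR adjusted p = 0.00792), while its change of 0.72 ± 0.27 in AF16 missed the threshold (adjusted p = 0.0912). The call in HK104 was lost without the first HK104 cold library (log2 change 0.84) and without the second HK104 control library (1.26). WBGene00026526 had 149 and 82.4 CPM in HK104 cold against 52.0 and 48.2 in HK104 control, a log2 change of 1.17 ± 0.28 (edgeR adjusted p = 0.0147). That call was lost without the first HK104 cold library (0.69), the first HK104 control library (1.24) or the second (1.10).

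WBGene00033405 was the only member called as higher in both strains. It had 174 and 135 CPM in HK104 cold against 85.6 and 90.6 in HK104 control, and 182 and 93.7 in AF16 cold against 73.0 and 72.7 in AF16 control. Its log2 change was 0.79 ± 0.24 in HK104 (edgeR adjusted p = 0.0402) and 0.80 ± 0.24 in AF16 (adjusted p = 0.0359). The call in HK104 was lost at least without the first HK104 cold library, without either HK104 control library and without either AF16 control library. The call in AF16 was lost without the first AF16 cold library (log2 change 0.42), either AF16 control library (0.77 and 0.81), the second HK104 cold library (0.79) or either HK104 control library (0.79 each), and in a fit of the AF16 libraries alone. WBGene00028531 had 192 and 149 CPM in AF16 cold against 89.2 and 104 in AF16 control, a log2 change of 0.72 ± 0.21 in AF16 (edgeR adjusted p = 0.0316). That call was lost without either AF16 control library (0.58 and 0.86), without either HK104 control library (0.71 each) and in a fit of the AF16 libraries alone.

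Counts of rises depended on the libraries, among all tested genes as well as among members. With all libraries 5 members rose in HK104, against 0 without the first HK104 cold library, 9 without the second, 1 without the first HK104 control library, 0 without the second, 36 without the first AF16 cold library, 32 without the second and 2 without either AF16 control library. The 36 and 32 were 16.5% and 14.7% of members, against 9.74% and 7.85% of all tested genes, whereas with all libraries the share of members was below that of all genes. In AF16, 4 rose with all libraries, against 44 without the first AF16 cold library, 34 without the second, 9 without the first HK104 cold library (4.13%, against 3.55% of all tested genes) and 0 without any 1 of the control libraries of either strain. The 44 and 34 were 20.2% and 15.6% of members, against 11.1% and 8.68% of all tested genes, also the opposite order to that with all libraries. Leaving out a library leaves a group with 1, which is then assumed to vary like the other groups. In each of these fits the share of members that fell was below that of all tested genes, as with all libraries. Falls varied less, between 6 and 10 in HK104, with the 10 without the second AF16 cold library, and between 6 and 9 in AF16. Without the first cold library of both strains, 42 members rose (19.3%, against 10.0% of all tested genes) and 11 fell in HK104, and 89 rose (40.8%, against 18.2%) and 15 fell in AF16.

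The rule keeps both parental ratios small, so the cold responses of the strains could not differ by much in these genes. The outcome of an edgeR test of their difference was therefore nearly fixed in advance, and nothing is read from it. The largest difference between the cold and control parental ratios was 0.597. The median log2 response was 0.17 in HK104, 0.15 in AF16 and 0.14 for the summed alleles of the hybrid, against 0.19, 0.19 and 0.24 in balanced genes. Across the 218 genes, which are not independent replicates, the hybrid response had a correlation of r = 0.81 (rho = 0.658) with that of HK104 and r = 0.787 (rho = 0.629) with that of AF16.

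**Figure D5:**
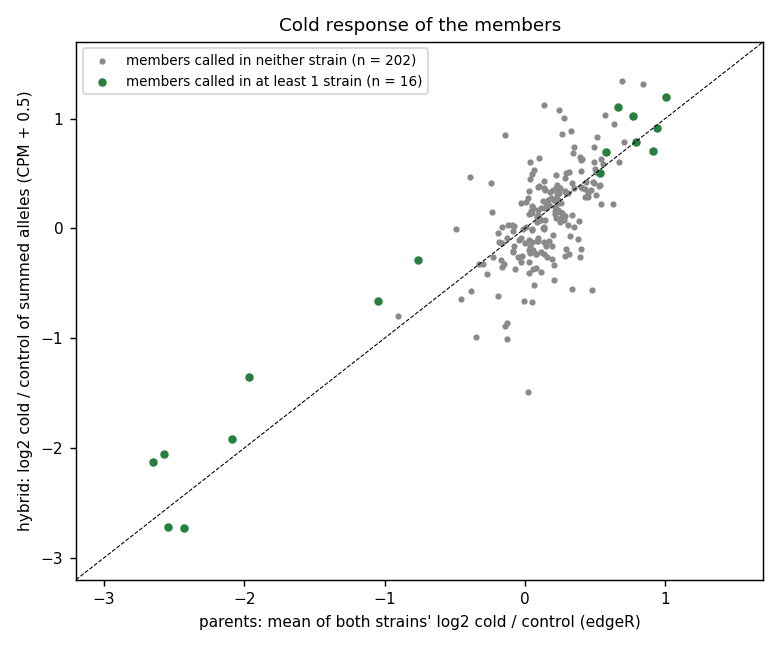
Log2 cold over control of the summed hybrid alleles (vertical axis) against the mean log2 response of both strains (horizontal axis) for the 218 genes, each point a gene, with the line of equality dashed. The 16 genes called in at least 1 strain are green and the 202 called in neither are grey, and the points lie along the line, with r = 0.81 against the HK104 response and r = 0.787 against that of AF16.

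From one hybrid library to the other the allele ratio changed little beside its own size. Its median size was 0.26 on the log2 scale in the 218 genes and 0.17 in balanced genes. A two-sided Fisher exact test per gene, adjusted over 6506 genes, compares the libraries and not the conditions. It called 28 of the 218 genes (12.8%), where it called 6.21% of the 6506, with 18 shifts toward HK104 after cold (background 3.37%) and 10 toward AF16 (background 2.84%). The rule bounds the ratio from below in both libraries, so no test of the difference between members and other genes was made. The 33 genes of the lowest class of summed level had a median change of 0.58 in size, against 0.24 in the 121 genes around the mid-parent. Median assigned reads were 111 after cold and 84 in the control in the lowest class, against 957 and 649 around the mid-parent. The part of counting error in these changes was not tested.

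Shifts within this range left the direction of the imbalance in place by the rule. WBGene00040464 had 46 HK104 and 485 AF16 reads after cold and 68 HK104 and 154 AF16 reads in the control, an HK104 share of 8.66% (6.56% to 11.4%) against 30.6% (24.9% to 37.0%), with a Fisher exact adjusted p of 9.76e-11. Its parental levels were 54.1 and 59.4 CPM in HK104 cold, 61.1 and 48.8 in AF16 cold, 44.6 and 49.2 in HK104 control and 44.0 and 43.8 in AF16 control libraries, and neither strain's cold change passed the test. WBGene00032629 moved the same way, with 195 HK104 and 989 AF16 reads after cold and 169 HK104 and 457 AF16 reads in the control (Fisher exact adjusted p = 2.04e-05).

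The largest called shifts toward HK104 were in 2 genes whose summed alleles stood far below the mid-parent. WBGene00040018 had 289 HK104 and 41 AF16 reads after cold and 267 HK104 and 101 AF16 reads in the control (Fisher exact adjusted p = 7.09e-05), at a summed level of 2.86% and 3.31% of the mid-parent. WBGene00025328 had 36 HK104 and 245 AF16 reads after cold and 17 HK104 and 307 AF16 reads in the control (Fisher exact adjusted p = 0.0282), at 2.26% and 2.89% of the mid-parent. Parental counts of both genes were between 25181 and 41456 per library, so the shifts rest on a small part of the reads that the parents gave.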

How the data were processed

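Whole-number read counts of 8 parental libraries were deposited by the authors, together with, for the 2 hybrid libraries, counts of reads in columns named by strain and treatment, read here as the reads assigned to each allele. Per the submitters' processing notes, the tools included cutadapt, HISAT2 2.2.0, HTSeq 0.11.1 and edgeR; the genome build, the annotation, the use of strand and the rule of allele assignment are not given in the sources used here, so reads of near-identical gene copies or overlapping genes may have been split or dropped. The authors' deposited edgeR tables were not used.

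The members, lists and tests were chosen with earlier results of these data known. CPM were counts over column totals, with both allele columns as the total of a hybrid library. Cold responses were tested with edgeR 4.0.16 (R 4.3.3, limma 3.58.1; TMM scaling, filterByExpr with its minimum count of 10, 1 coefficient for each of 4 parental groups, quasi-likelihood F test), adjusted by Benjamini-Hochberg over 13503 genes. Standard errors are the log2 change over the square root of F. Allele counts were compared by Fisher exact tests (scipy 1.17.1), adjusted over the 6506 genes that also met the share limits, not the 6849 with enough reads that the design named, and shares have 95% Wilson intervals (statsmodels 0.14.6). Scripts were tested on simulated data. DESeq2 1.42.0, other scalings, filters and limits, the replicate block and leaving out libraries were alternatives. Named genes are at most 2 per direction: the strongest allele ratios, the called cold responses of largest size, the highest and lowest summed level, the largest called allele shifts, the genes nearest to each limit and those with the most reads. Replicate numbers were not used to pair the parental libraries in the main fit. The correlations of the libraries' deviations from the group means ran from -0.044 to 0.39, with 4 of 6 over 0.1. Whether libraries of the same number share an effect was not tested.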

Additional observations from a re-analysis of the deposited data

How the results depend on the processing

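The count of 218 genes kept within 1.5 times under 19 of 22 alternatives. It was 422 with no limits on the AF16 share, 122 with an allele ratio of at least 1.5 and 138 with a parental ratio of at most 0.2. Leaving out a parental library gave 164 to 219 genes, 45 to 58 of them HK104-higher and 119 to 161 AF16-higher, and without the first cold library of both strains (an alternative chosen after seeing the data) 189 genes met the rule, 180 of them among the 218. The 58 HK104-higher genes became 36 with at least 80 allele reads, 129 with no share limits, 30 with an allele ratio of at least 1.5 and 26 at 50% of the mid-parent or more (also chosen after seeing the data). The 160 AF16-higher genes became 293 with no share limits, 92 with an allele ratio of at least 1.5 and 99 with a parental ratio of at most 0.2. The count of 106 genes below the mid-parent was 140 with TMM, 110 with totals over the 6849 genes with at least 40 allele reads, 123 with totals over the 6506 within the share limits too, 130 with DESeq2 size factors, 105 to 107 with a library left out and 103 without the first cold libraries (the totals over 6506 and the last chosen after seeing the data). The share of balanced genes moved too. Members against balanced genes stood at 64.2% against 51% with TMM and 50.5% against 34.3% with totals over 6849 genes. They stood at 56.4% against 41.1% with totals over 6506 genes and 59.6% against 45% with DESeq2 size factors.

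The 5 rises in HK104 became 16 with DESeq2, 9 with no filter on low counts, 10 with HK104 libraries only and 8 with DESeq2 size factors, and 42 without the first cold libraries, with 0 to 36 when 1 library was left out. The 4 rises in AF16 became 32, 12, 0 (AF16 libraries only) and 26 under the same settings, 13 with total counts, 89 without the first cold libraries, and 0 to 44 with 1 library left out. The 6 falls in HK104 became 10 with HK104 libraries only and 11 without the first cold libraries (6 to 10 with 1 library left out). The 8 falls in AF16 became 15 without the first cold libraries (6 to 9 with 1 library left out). With the replicate number as a block, 14 rose in HK104 and 7 in AF16. Under every alternative the share of members that fell was below that of all tested genes, in both strains. The share of members that rose passed that of all tested genes with DESeq2 (7.34% against 5.83% in HK104, 14.7% against 8.24% in AF16), with no filter (4.13% against 3.45% and 5.5% against 3.14%), in HK104 with the block (6.42% against 6.23%), and in AF16 with DESeq2 size factors (11.9% against 7.09%) and total counts (5.96% against 4.26%). The DESeq2 size factors moved the median AF16 response of all genes to 0.11 on the log2 scale, against -0.06 with TMM, and rises in AF16 are relative to that. The causes of these changes were not tested. No named response changed sign. The 28 allele shifts became 26 when adjusted over genes with at least 20 reads and 25 with a chi-square test, and stayed 28 when adjusted over the 6849 genes (chosen after seeing the data). A hybrid library per condition, the unknown assignment rule and few assigned reads in the lowest class limit every statement on the alleles.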
